A study of Mus musculus with 9 samples.

Results

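CD4+ T cells cultured with 5 μM acacetin were compared with the midpoint between the cultures without the compound and those with 10 μM, so that the data show for each gene how far the change at the lower concentration lay from a straight line through the dose. All 9 of the 9 libraries of the series entered the comparison, 3 at each concentration. The quantity is the departure, the log2 level at 5 μM minus the mean of the log2 levels at 0 and 10 μM, and it is 0 where the step from 0 to 5 μM and the step from 5 to 10 μM are equal. Of 12185 genes with enough counts to be tested, 467 departed from the midpoint at an adjusted p under 0.05 (edgeR quasi-likelihood test, Benjamini-Hochberg adjustment over all genes tested). Of these, 277 lay above the midpoint, 2.27% of the genes tested, and 190 lay below it, 1.56%.

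The cells were wild-type naive CD4+ T cells, isolated, as the methods describe, from the lymph nodes and spleens of mice without disease. All 9 cultures were activated on plates coated with CD3 and CD28 antibodies at 5 μg/ml, and they differed by the concentration of acacetin, a natural flavone dissolved in DMSO. RNA was taken on day 3 from cells held throughout with 0, 5 or 10 μM of the compound. The labels call the 3 libraries of a concentration biological replicates without saying whether these were separate animals or cultures, so the p-values measure the spread between these libraries. The labels and the methods name different culture media, and 3 days of culture with stimulation from the plate limit the cells as a model of T cells in the body.

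A T cell receptor that binds its ligand, or an antibody to CD3, sets off calcium and kinase signals that reach the nucleus within minutes. The first genes to respond are the immediate early genes, among them the Nr4a nuclear receptors, the Jun and Fos subunits of the AP-1 transcription factor and the Dusp phosphatases that switch mitogen-activated protein kinases off again. Later genes make the cell grow, divide and take up effector functions, while genes of the resting naive cell, such as Ccr7 and the Gimap family, are turned down. A rising concentration of a compound may move such genes in equal steps, or 1 step may carry most of the change, and the midpoint comparison separates these cases gene by gene.

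The 9 libraries held 19664981 to 24410715 counts, and all 12 markers listed for CD4 T cells were expressed, with a sum of 4598 to 4816 CPM (counts scaled to a common library size with TMM factors). Transcripts of other tissues stood out in 2 libraries. The liver list of 10 genes summed to 35.0 CPM in the library of 5 μM replicate 2 and to at most 4.36 CPM elsewhere. The lung list of 8 genes summed to 112.9 CPM in that of 10 μM replicate 1, against 24.9 to 39.1 elsewhere. Elsewhere most of the sum was 1 gene, Ager, at 21.0 to 34.1 CPM. Sftpc and Scgb1a1 had 22.0 and 37.2 CPM in 10 μM replicate 1 and at most 2.48 and 3.53 elsewhere. The library of 10 μM replicate 1 also held 23.5 CPM of 6 blood genes, against at most 2.11 elsewhere. The macrophage and monocyte list of 12 genes summed to 2.36 to 4.68 CPM at 0 μM, 7.63 to 8.77 at 5 μM and 8.58 to 21.9 at 10 μM. Its defining genes Csf1r, C1qa, C1qb, C1qc and Fcgr1 reached at most 0.15 CPM in any library. The part of these transcripts in the results was not tested, except where a gene is one of them. In RNA from whole cultures, fewer cells of a type and less RNA per cell cannot be told apart.

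For 74.8% of the genes that differed between 10 and 0 μM, more of the change was made in the first step than in the second. The number of genes that differed between 5 and 0 μM was 4036, which is 33.1% of those tested, against 1097 between 10 and 5 μM, which is 9%, and 5769 between 10 and 0 μM, which is 47.3%. For the 5769 genes that differed at 10 μM, the change at 5 μM was a median of 66.8% of the change at 10 μM, with the middle 50% of genes between 49.9% and 82.6%. The 914 of them with more than 1.5-fold change had a median of 66.7%. Of the 467 called departures, 406 lay on the side towards the 10 μM level and 17 on the other side of the midpoint, and for the other 44 the 10 μM level was not called different from 0 μM. The departures were small. Their median size was 0.16 on the log2 scale above and below the midpoint alike, against 0.06 for all genes.

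The called genes and the genes that turn around fall into 6 classes that use the same tests, so the class sizes are a description. In 240 genes the change was complete at 5 μM. Here the departure and the step from 0 to 5 μM were called and 10 against 5 μM was not. The change at 5 μM was also within 25 percentage points of 100% of that at 10 μM. In all 240 the 10 μM level was called different from 0 μM, which the class did not ask for. In 95 genes both steps were called in the same direction and the first was larger, and in 0 genes the second was larger. In 9 genes the first step was not called and under 25% of the change was present at 5 μM. In 25 genes both steps were called in opposite directions, with 11 peaks and 14 troughs at 5 μM, and 22 of these 25 had a called departure. The other 101 called departures met none of these rules.

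**Figure D1:**
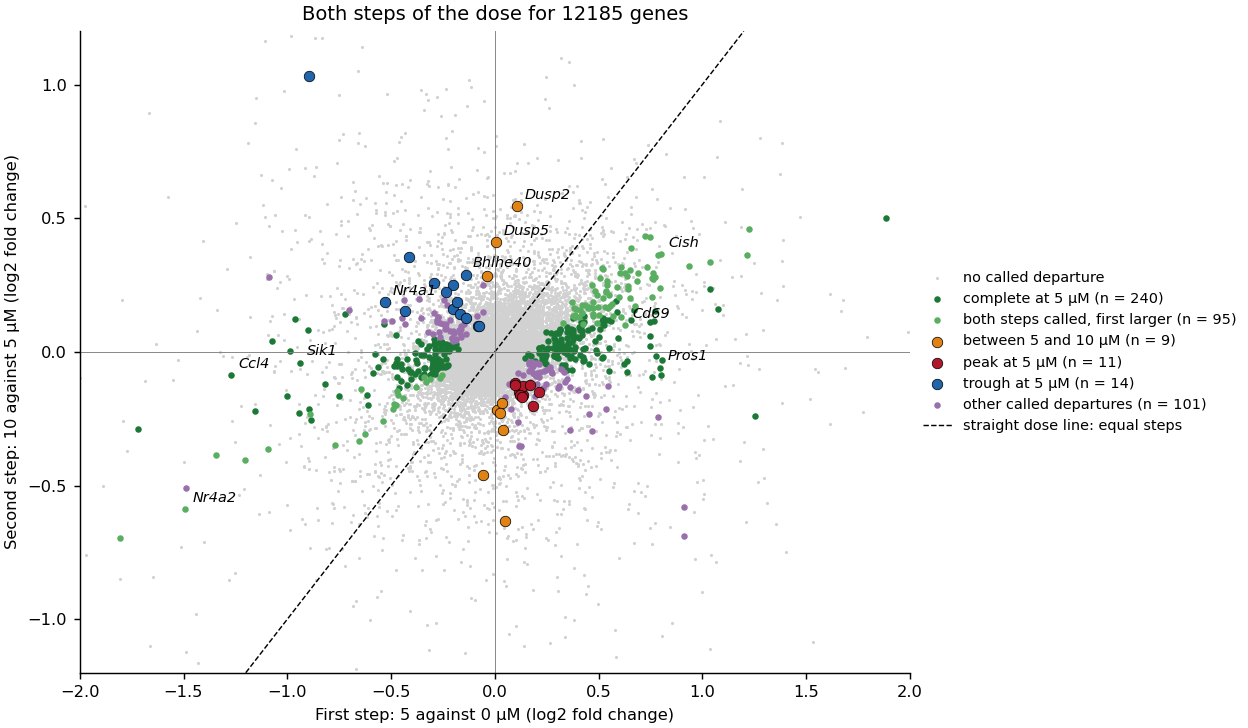
The change from 0 to 5 μM (horizontal axis) and from 5 to 10 μM (vertical axis), both as log2 fold changes, for 12185 genes, coloured by class, with the dashed line marking equal steps; 47 genes, 4 of them with a called departure, lie outside the axes. The 240 complete genes lie along the horizontal line, the 9 genes that moved between 5 and 10 μM along the vertical line, and the 14 troughs and 11 peaks in the upper left and lower right.

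The 3 Nr4a nuclear receptors all departed below the midpoint, and each took a different course. Nr4a1, an orphan receptor that reports T cell receptor signals, was a trough. Nr4a2 fell at both steps, and Nr4a3 had its lowest level at 5 μM with a departure near the threshold. The stretch of 250 bases before the start site is shown for each because the 3 genes share a sequence feature in it. The letters TGACG or their complement CGTCA, the shorter form of the cAMP response element that CREB and ATF factors bind, are in capitals. The sequences are those of RefSeq on GRCm38.p6, a build that precedes the one named for the counts, and each is written in the direction of the gene.
Nr4a1, chr15:101266596-101266845, plus strand: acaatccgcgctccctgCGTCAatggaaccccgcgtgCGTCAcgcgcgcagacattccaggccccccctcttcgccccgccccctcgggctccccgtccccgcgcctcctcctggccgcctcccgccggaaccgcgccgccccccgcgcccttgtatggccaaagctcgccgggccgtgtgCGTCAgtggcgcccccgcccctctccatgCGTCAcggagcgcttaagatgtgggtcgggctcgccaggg
Nr4a2, chr2:57124004-57124253, minus strand: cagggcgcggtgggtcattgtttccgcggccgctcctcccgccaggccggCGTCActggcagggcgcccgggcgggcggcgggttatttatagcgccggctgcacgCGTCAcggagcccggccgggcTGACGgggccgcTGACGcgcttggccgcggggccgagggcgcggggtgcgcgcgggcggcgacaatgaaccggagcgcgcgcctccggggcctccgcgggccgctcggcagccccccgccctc
Nr4a3, chr4:48045055-48045304, plus strand: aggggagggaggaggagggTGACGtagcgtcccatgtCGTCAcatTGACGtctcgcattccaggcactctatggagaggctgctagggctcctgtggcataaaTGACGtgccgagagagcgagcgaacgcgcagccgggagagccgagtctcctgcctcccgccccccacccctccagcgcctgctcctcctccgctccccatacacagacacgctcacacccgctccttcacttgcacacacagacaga
Each stretch holds 4 copies of the short element and none of them holds the full element TGACGTCA. Counted on both strands in 250 bases, where every full element also counts as a short element, 17.8% of 32851 RefSeq promoters and 27.9% of the 9566 tested genes with a promoter in the table hold at least 1 short element. Of the 24 genes of the immediate early list with a promoter in the table, 10 hold one, which is 41.7%. These 10 include the 3 Nr4a genes shown here, so the share is not independent of them. Only 1 of the 24, Dusp1, holds the full element, and its departure was not called. Among the troughs 4 of 10 with a promoter hold a short element, Nr4a1 included, and among the complete genes 44 of 183, which is 24%. The motif was chosen after the levels of these genes had been seen, and a match describes letters and not binding.

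Nr4a1 had the smallest p of all departures. It measured 209.7, 209.8 and 208 CPM at 0 μM, 146, 146 and 143 at 5 μM and 164, 166 and 164 at 10 μM. All 3 libraries at 5 μM were below all others, and those at 10 μM lay between the other groups without overlap. On the log2 scale it fell by 0.53 in the first step and rose by 0.19 in the second, with a departure of -0.36 ± 0.025 (SE, n = 3 per group, edgeR adjusted p = 2.17e-07). Junb, an AP-1 subunit, turned in the same way. It had 480.3, 478 and 478 CPM at 0 μM, 362, 355 and 346 at 5 μM and 388, 388 and 405 at 10 μM, and its 3 groups did not overlap. Its departure was -0.29 ± 0.025 (edgeR adjusted p = 3.08e-06).

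Nr4a2 kept falling. It measured 92.3, 91.5 and 86.9 CPM without the compound, 32.2, 32 and 31.9 at 5 μM and 21.4, 22.2 and 20.5 at 10 μM, 3 separate groups in order of dose. The first step was -1.49 and the second -0.59 (log2, edgeR adjusted p = 8.47e-14 and 1.82e-06), so that 71.8% of the change at 10 μM was present at 5 μM. The departure was -0.45 ± 0.043. Nr4a3 measured 164, 154 and 153 CPM at 0 μM, 146, 150.4 and 147 at 5 μM and 160.4, 168 and 159 at 10 μM. Its 3 libraries at 5 μM were the lowest of the 9, and the other groups overlapped. Its departure of -0.11 had an edgeR adjusted p of 0.0499, and its first step was not called.

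**Figure D2:**
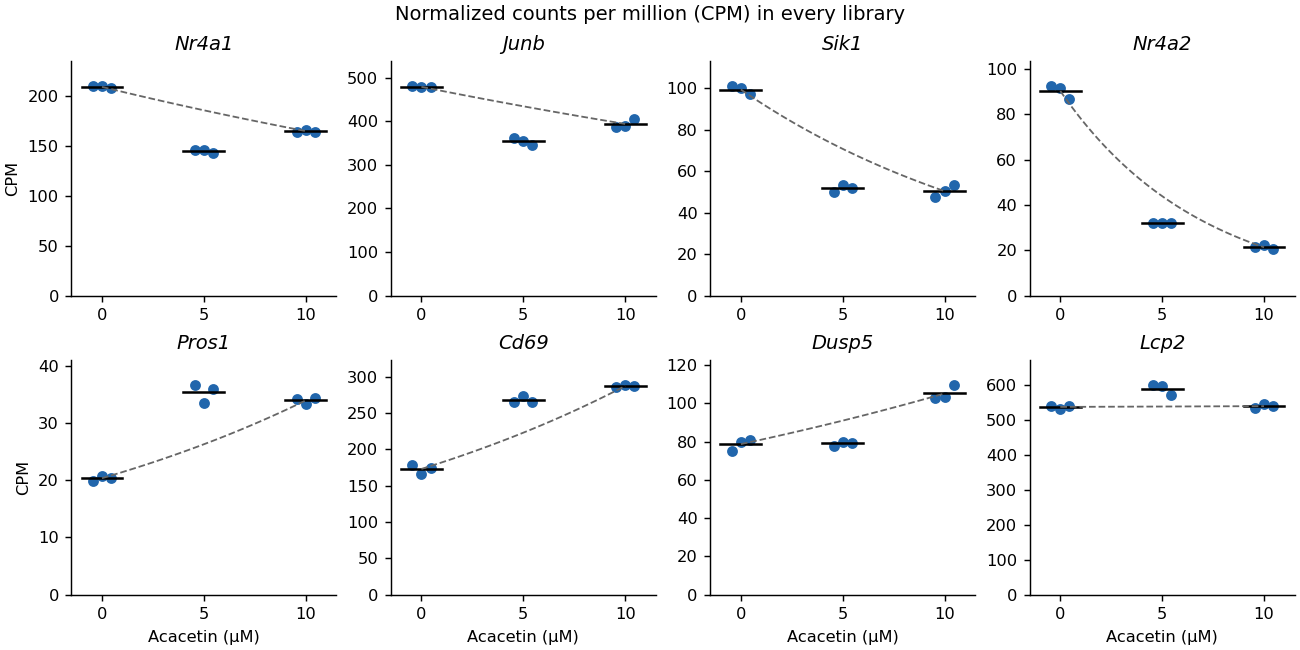
CPM (vertical axis, from 0) against the concentration of acacetin for 8 genes, with 1 point per library, a bar at the mean of 3 libraries and a dashed line that joins the means at 0 and 10 μM in equal log2 steps. Nr4a1 and Junb lie lowest at 5 μM, Sik1 and Pros1 reach at 5 μM a level near that at 10 μM, Dusp5 changes between 5 and 10 μM, and Lcp2 is highest at 5 μM.

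Bhlhe40, a basic helix-loop-helix repressor that shapes cytokine output in T cells, was the only gene called in opposite directions at 5 and at 10 μM against 0 μM. It measured 438, 441 and 423 CPM at 0 μM, 391, 399.9 and 391 at 5 μM and 491, 476 and 477 at 10 μM, without overlap. It fell by 0.14 and then rose by 0.29 (log2, edgeR adjusted p = 7.03e-04 and 2.56e-06), to a level 0.15 above that without the compound. In Bhlhe40, Nr4a1 and Junb the level at 10 μM still differed from 0 μM; in the other 11 troughs and in all 11 peaks it was not called different.

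Atf3, a stress-induced transcription factor of the ATF family, had 35.4, 33.7 and 36 CPM at 0 μM, 29.1, 27.8 and 28.9 at 5 μM and 32.7, 33.4 and 36.4 at 10 μM. Dusp4, a nuclear phosphatase for mitogen-activated protein kinases, had 98.5, 92.7 and 92 CPM, 81.8, 85.9 and 81.7 and 92.3, 95.5 and 96.1 in the same order. Both were lowest in the 3 libraries at 5 μM, and their levels at 0 and 10 μM overlapped. Their departures were -0.28 and -0.18 (edgeR adjusted p = 0.00329 and 0.00424). Ecsit, an assembly factor of mitochondrial complex I that also takes part in Toll-like receptor signalling, measured 20.6, 20.6 and 22.4 CPM at 0 μM, 15.8, 15.4 and 16.6 at 5 μM and 19.7, 20.5 and 20.9 at 10 μM, with a departure of -0.39 (edgeR adjusted p = 8.81e-04). Its 3 libraries at 5 μM were again below all others.

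Other troughs had edgeR adjusted p from 0.00901 for Ncf1 to 0.0557 for Nars. Ncf1, a subunit of the phagocyte NADPH oxidase, fell by 0.24 and rose by 0.22. Mthfd2, an enzyme of mitochondrial folate metabolism and a target of Atf4, fell by 0.14 and rose by 0.13, and Ahnak, a large scaffold protein, fell by 0.20 and rose by 0.16 (all log2). In Ahnak alone of the 14 troughs, the libraries at 5 μM overlapped those at 10 μM. Further troughs were Casp6, the antisense transcript Phtf1os, the ribosomal protein gene Rpl7a and Nars, a cytosolic aminoacyl-tRNA synthetase. In the 9 analyses that left out 1 library, Casp6 turned in 2, Phtf1os in 7, Rpl7a in 1 and Nars in 0. Phtf1os had a mean of 1.5 CPM at 5 μM, and reads of antisense transcripts may not have been told apart from those of the overlapping gene, since the strand setting of the counts is not given in the sources used here.

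Peaks at 5 μM were small in size. Lcp2, which codes for the adaptor SLP-76 downstream of the T cell receptor, measured 539, 530.2 and 539 CPM at 0 μM, 598, 595 and 571 at 5 μM and 532, 544 and 538 at 10 μM. The 5 μM libraries were above all others, and the groups at 0 and 10 μM overlapped. It rose by 0.13 and fell by 0.13 (log2, edgeR adjusted p = 8.26e-04 and 0.00505). Fndc3a rose by 0.21 and fell by 0.15, and Klf6, a zinc finger transcription factor, rose by 0.10 and fell by 0.11. Tor1aip2, Lrrc58, Cept1, Nxpe3, Bmi1 and Tmem184c had first steps of the same order, between 0.12 for Bmi1 and 0.18 for Nxpe3. In the 9 analyses that left out 1 library, these 6 turned in 4, 5, 6, 3, 3 and 2, in the order named. The 3 turning genes without a called departure were Bmi1, Tmem184c and Nars.

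Another peak, Alb, belongs to the library with liver transcripts. This gene for serum albumin measured 1.62, 15.4 and 1.11 CPM in the 3 libraries at 5 μM and at most 1.39 CPM in each library at 0 and 10 μM, so that 1 library carried its whole change. All 3 libraries at 5 μM were above the other 6 in 10 of the 11 peaks and below them in 13 of the 14 troughs. Among all genes tested, the 3 libraries at 5 μM lay outside the range of the other 6 on 1 side in 284 genes, 2.33%. The classes used the same values, so these counts describe how the called genes look library by library.

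**Figure D3:**
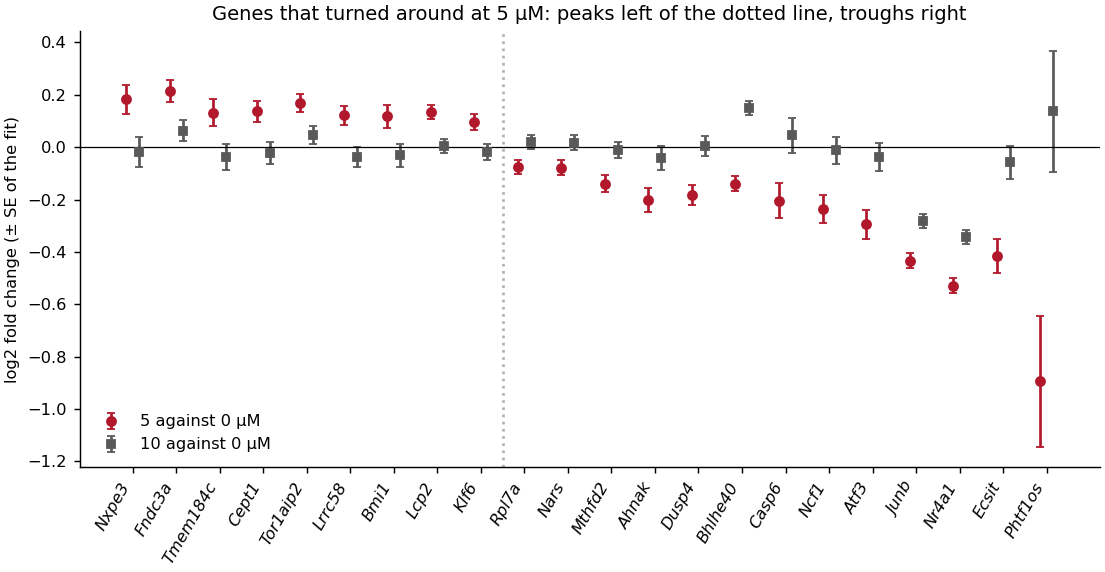
Log2 fold change (vertical axis) at 5 μM (red circles) and at 10 μM (grey squares), each against 0 μM with the SE of the fit, for 22 of the 25 genes that turned around, ordered by class and departure. Alb, whose change comes from 1 library, is among those left out. Peaks stand left of the dotted line and troughs right of it, and only Bhlhe40 has red and grey points on opposite sides of 0 with both called.

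Of 34 immediate early and activation-induced regulators, 15 departed from the midpoint, 4 above and 11 below it, which is 44.1% of the list against 3.83% of all genes tested. The median departure of the list was -0.03, beside 0.00088 for all genes, and its members left the line in both directions. Below the midpoint were the 3 Nr4a genes, Junb, Bhlhe40, Dusp2, Dusp4 and Dusp5, the AP-1 subunit Fosl2, Ier2 and Irf8. Above it were Cd69, Jun, Irf4 and Myc, which all rose at both steps. Jun, the AP-1 partner that moved against Junb, measured 107, 109.8 and 106 CPM at 0 μM, 175, 175 and 169.8 at 5 μM and 211, 217 and 211 at 10 μM, 3 separate groups, with a departure of 0.20 (edgeR adjusted p = 2.57e-04). Without both libraries with lung or liver transcripts, 2 genes of the list were above and 10 below, beside 95 and 89 of all genes tested. Not all members left the line. Egr2, a target of the same receptor signals, had 28 CPM, 26.2 and 24 in order of dose and a departure of 0.01 (edgeR adjusted p = 0.924). Fos had 39.5 CPM, 43.1 and 56.1, and its departure of -0.13 was not called (edgeR adjusted p = 0.0901).

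Among the genes whose fall was complete at 5 μM was Sik1, a salt-inducible kinase whose gene answers to cAMP and which restrains the coactivators of CREB. It measured 101, 99.8 and 97.1 CPM at 0 μM, 49.8, 53.5 and 52 at 5 μM and 47.3, 50.2 and 53.5 at 10 μM. The first step was -0.94 and the second -0.04, with a 95% interval of -0.14 to 0.06 (log2), and the groups at 5 and 10 μM overlapped. The departure was -0.45 ± 0.041 (edgeR adjusted p = 7.74e-06).

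Several effector genes fell in the first step. Ccl4, a chemokine of activated lymphocytes, had 20.2, 18.6 and 18.9 CPM at 0 μM, 7.73, 9.23 and 6.76 at 5 μM and 7.33, 8.04 and 7.13 at 10 μM. The cytotoxic granule gene Nkg7 had 18.7, 17.3 and 18 CPM, 8.44, 9.51 and 8.92 and 8.83, 7.69 and 7.54. In both, the 5 and 10 μM groups overlapped and lay below 0 μM, and the second step had an interval of -0.32 to 0.14 for Ccl4 and -0.36 to 0.03 for Nkg7. Ccl3, the neighbour of Ccl4 in the chemokine family, fell at both steps, by 1.20 and 0.40. Lgals1, the gene for galectin-1, also fell at both steps, by 0.64 and 0.14, and Stat4, the signal transducer of interleukin-12, was complete with a first step of -0.56. The effector list of 24 genes held 2 departures above and 4 below the midpoint, which is 25% against 3.83% of all genes tested. Over 18 alternatives that kept the log2 line these were 0 to 2 above and 2 to 5 below. In its 12 genes that differed at 10 μM, the median share at 5 μM was 84.2%, against 66.8% for all genes that differed. Il2ra, the high-affinity interleukin-2 receptor chain, was complete on the rising side, with 420.2, 412 and 411 CPM at 0 μM, 486, 496 and 490.0 at 5 μM and 485, 506 and 475 at 10 μM.

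The actin genes settled at 5 μM too. Actg1 measured 2382, 2382 and 2357 CPM at 0 μM, 1737, 1696 and 1707 at 5 μM and 1726, 1636 and 1599.8 at 10 μM, and Actb had means of 4853, 3950.4 and 3842. Both code for cytoplasmic actins, and reads may be split between near-identical copies. The second step had an interval of -0.11 to 0.01 for Actg1 and -0.09 to 0.01 for Actb. Among 36 genes of the actin cytoskeleton 0 lay above the midpoint and 6 below it, which is 16.7% against 3.83% of all genes tested. The median departure of the list was -0.04, beside 0.00088 for all genes. Of the 36 genes, 27 were called lower at 10 than at 0 μM, beside 2870 of all 12185 genes tested. Myh10, the heavy chain of nonmuscle myosin, and Tpm4, a tropomyosin, were among the 6 members called lower at 10 than at 5 μM, with second steps of -0.35 and -0.13. Over all 12185 genes tested, 498 were called lower in that step.

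Metabolic genes in the complete class were Eno3, an enolase, with a first step of -0.54 and a second of -0.03, the brain-type creatine kinase Ckb with -0.47 and -0.02, and Phgdh, the first enzyme of serine synthesis, with -0.35 and 0.03 (all log2). Cth, which makes cysteine from cystathionine, had -0.82 and -0.12. Sectm1a, Tnfrsf13c, Serpina3f and Olfr1372-ps1 were other large falls of this class. Their 10 μM changes went from -1.17 for Sectm1a to -0.92 for Olfr1372-ps1, a pseudogene whose reads may belong to related genes. In 17 alternatives that kept the log2 line, their departures were called in 15, 14, 6 and 10, in the order named.

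On the rising side, Pros1, the gene for the anticoagulant protein S, measured 19.9, 20.8 and 20.4 CPM at 0 μM, 36.6, 33.5 and 36 at 5 μM and 34.1, 33.3 and 34.4 at 10 μM. The groups at 5 and 10 μM overlapped, with a first step of 0.80 and a second of -0.06 (interval -0.17 to 0.05). Ccr4, a chemokine receptor of skin-homing and type 2 helper T cells, had 22.5, 21.9 and 24.5 CPM, 38.4, 38.9 and 39.6 and 33.2, 38.9 and 37.3, and the transcription factor Myb 81.4, 82.4 and 83.1, 111, 110.3 and 109.9 and 109, 112 and 105. In both, the libraries at 5 and 10 μM overlapped and lay above 0 μM, with intervals of the second step of -0.22 to 0.03 for Ccr4 and -0.09 to 0.05 for Myb. Socs2, a feedback inhibitor of STAT5 signalling, had a first step of 0.75, and the survival gene Bcl2 one of 0.53 with a second of 0.10 (interval 0.02 to 0.19).

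Other large rises of the complete class were Robo3 (first step 1.04, second 0.23), Crebrf, Tnfrsf26, Zbtb10, E430014B02Rik, Fndc10 and Sulf2. In 18 alternatives that kept the log2 line, the departure was called in 9 for Zbtb10 and in 7 for Fndc10. For the others listed here it was called in 14 or more. Robo3, Crebrf and Fndc10 were at the loose end of the class, since their intervals of the second step, 0.02 to 0.45, 0.02 to 0.29 and 0.07 to 0.32, lay above 0. This was so, in either direction, for 46 of the 240 complete genes, because the class asks only that the second step not pass the adjusted threshold. The median share at 5 μM in the class was 92.2%, and 80 of the 240 genes exceeded 100%. Just inside the limits of the share were Ei24 at 75.0%, Fndc10 at 75.2% and Slc35d3 at 124.9%, and just outside Nos2 at 74.6%, Nr2c2 at 125.2% and Brd1 at 125.6%. With a limit of 15 percentage points around 100%, chosen after the data had been seen, 148 genes were complete.

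Genes that rose at both steps with a larger first step made up 72 of the 95 genes of that class. Cd69, an early activation antigen that holds lymphocytes in tissue, measured 179, 167 and 174 CPM at 0 μM, 265, 273 and 265 at 5 μM and 286, 288 and 287 at 10 μM. The 3 groups did not overlap, and 86.2% of the change was present at 5 μM, with a departure of 0.26 ± 0.026 (edgeR adjusted p = 1.16e-05).

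Cish, a feedback gene of STAT5, rose from 115, 114 and 113 CPM at 0 μM to 193, 200.2 and 202 at 5 μM and 259, 258 and 251 at 10 μM, with 68.7% of its change in the first step. Trp53inp1, a target of p53 that promotes autophagy and cell death, had 238, 236 and 241 CPM, 423, 406 and 415 and 497, 518 and 453, with 76.9%. Gimap3, a GTPase of lymphocyte survival, had 76.9% of its change at 5 μM, Ms4a4b 82.1% and Tagap 74.5%. These 5 genes were among the 10 with the smallest p above the midpoint, and all 10, like the 10 with the smallest p below it, were called in each of 19 alternative analyses. Gimap3 and Ms4a4b have close relatives in the genome with which they may share reads.

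The class that moved between 5 and 10 μM was small and held 2 phosphatases. Dusp2, a nuclear phosphatase induced in activated T cells, measured 43.7, 42.8 and 43.9 CPM at 0 μM, 44.6, 48.4 and 47.5 at 5 μM and 70.0, 63.6 and 71.4 at 10 μM. Dusp5, which acts on ERK in the nucleus, had 75.2, 79.9 and 80.8 CPM, 77.8, 79.9 and 79.5 and 103, 103 and 109. In both, the 10 μM libraries were above all others, and 16.6% of the change of Dusp2 and 1.67% of that of Dusp5 was present at 5 μM. The second step was 0.55 for Dusp2 and 0.41 for Dusp5 (log2, edgeR adjusted p = 1.82e-06 and 2.44e-06), against first steps of 0.11 and 0.01 that were not called. Dusp1, a member of the same family, did not take this course: its steps were 0.53 and 0.38, and its departure of 0.07 was not called (edgeR adjusted p = 0.273).

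Slc25a1, the mitochondrial citrate carrier, was the other rising gene of the class that moved between 5 and 10 μM. It had 60.5, 61.2 and 61.4 CPM at 0 μM, 61.6, 60.7 and 55.9 at 5 μM and 73, 71.5 and 72.4 at 10 μM. Of the 6 falling genes, Slc39a10, a zinc importer, had 33.9, 32.6 and 35.9 CPM, 33.3, 32.7 and 32.5 and 24, 24.1 and 23.5, and Alcam, an adhesion molecule that binds CD6, had 46.8, 47.4 and 45.3, 47.2, 47 and 49 and 40.3, 37.7 and 39. In both genes the 10 μM libraries lay below the other 6. Hivep3, Parp14 and Mllt3 fell in the second step by 0.22, 0.23 and 0.19 (log2). Rps12l1 fell by 0.63, and its reads may belong to other copies of this ribosomal protein gene.

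Of the 101 called departures outside these classes, 91 were past the upper limit of the share at 5 μM, and 23 were called at 5 μM but not at 10 μM. Among them were Cd40lg, the CD40 ligand of helper T cells, with steps of -0.28 and 0.11, the cytokine gene Lta with -0.29 and 0.15, and Adora2a, a receptor for adenosine, with -0.21 and 0.12. Cd274, the gene for PD-L1, and Bach2, a repressor that keeps T cells from effector fate, rose by 0.20 and 0.21 and then had second steps of -0.08 and -0.09 that were not called (all log2). These second steps leaned back towards 0 μM without passing the threshold for a turn.

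Lists of genes with a shared role are set beside the 3.83% of all genes with a called departure. The p53 list, genes that arrest the cell cycle or promote death when p53 is active, had 12 of 32 genes above the midpoint and 0 below, with a median departure of 0.11. In its 26 genes that differed at 10 μM, the median share at 5 μM was 71.4%, against 66.8% for all genes that differed. Called departures were more frequent among larger changes. They were called in 423 of the 5769 genes that differed at 10 μM and in 91 of the 505 more than 1.5-fold higher. Cdkn1a, the cell cycle inhibitor p21, measured 237, 243 and 238 CPM at 0 μM, 342, 344 and 339 at 5 μM and 422, 424 and 428 at 10 μM, while Mdm2, the ligase that degrades p53, was complete with steps of 0.31 and 0.07. Phlda3, Zmat3 and Ercc5 had departures of 0.17, 0.15 and 0.16. Without both libraries with lung or liver transcripts, 6 of the 32 p53 genes were above the midpoint and 0 below. Over all genes tested, the 277 above were then 95 and the 190 below 89.

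Genes of naive and homing T cells had 8 of 24 above the midpoint and 1 below, with a median departure of 0.11 and a median share of 76.6% at 5 μM. These included Satb1, a chromatin organizer, with a departure of 0.15, and Pik3ip1, an inhibitor of PI3-kinase, with 0.31. Id3, an inhibitor of E proteins, was the member below, with a complete fall of 0.66. Not every homing gene bent: Ccr7, the receptor that guides naive cells into lymph nodes, measured 742, 751 and 748 CPM at 0 μM, 951, 948 and 938 at 5 μM and 1237, 1199 and 1203 at 10 μM. Its steps of 0.34 and 0.36 were nearly equal, with a departure of -0.01 (edgeR adjusted p = 0.865). Without both libraries with lung or liver transcripts 2 genes of this list were above and 0 below, beside 95 and 89 of all genes tested.

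**Figure D4:**
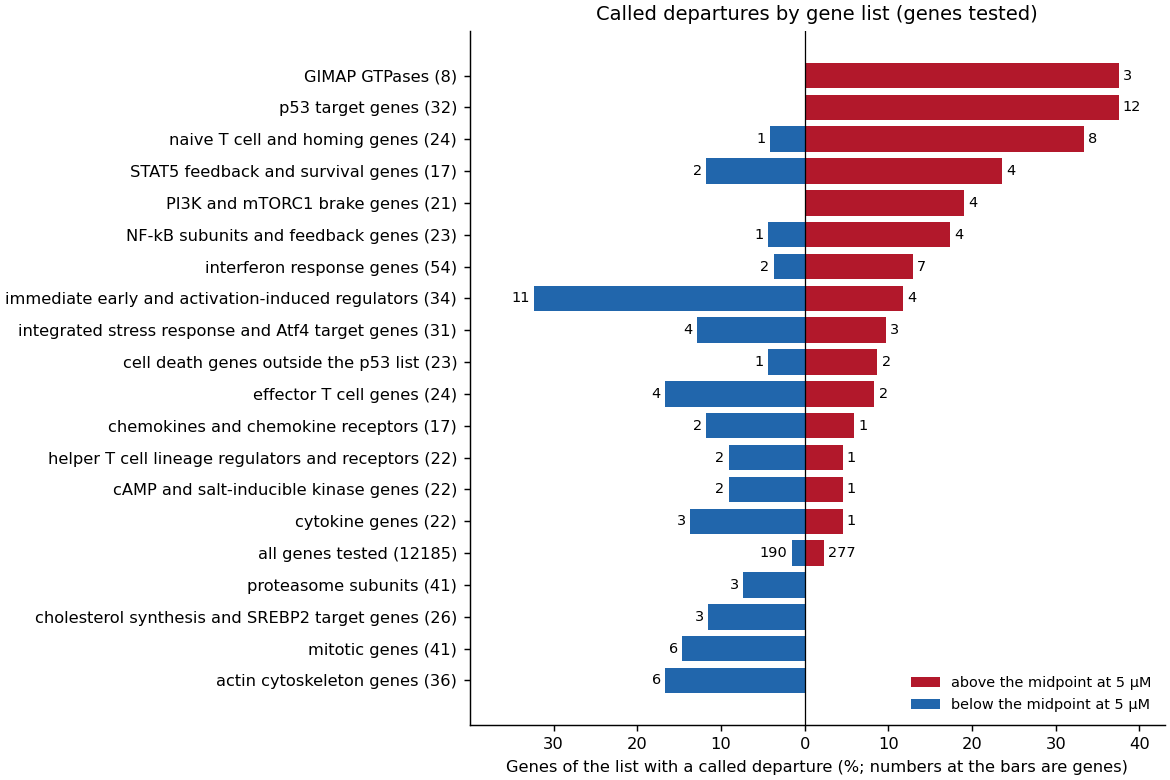
Share of the tested genes of each list with a called departure, above the midpoint to the right in red and below to the left in blue, in percent, for the 19 of 41 lists with at least 3 called genes and for all genes tested. The p53 list lies wholly and the naive T cell list almost wholly on the right and the actin, mitotic, cholesterol and proteasome lists wholly on the left, while the immediate early list has 11 genes on the left and 4 on the right.

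Feedback genes of NF-κB were above the midpoint in 4 of 23 and below in 1. The inhibitor Nfkbia measured 361, 384 and 376 CPM at 0 μM, 542, 542 and 538 at 5 μM and 628, 603 and 592 at 10 μM, and Tnfaip3, which codes for the ubiquitin-editing enzyme A20, had a departure of 0.14. The subunit Rel lay below, with a departure of -0.12. The STAT5 list had 4 genes above and 2 below of 17, the interferon list 7 above and 2 below of 54, and the list of brakes on PI3-kinase and mTORC1 4 above and 0 below of 21. Over all genes tested, the 277 above were 140, 108 and 70 without 5 μM replicates 1, 2 and 3 and 622 without 10 μM replicate 2. They were 187 and 179 without 0 μM replicates 1 and 2 and 176 with a straight line in CPM. The 190 below were 74 without 5 μM replicate 2. The 7 interferon genes above were 4 without 5 μM replicate 2, 2 without 5 μM replicate 3 and 12 without 10 μM replicate 2. The 4 brakes were 1 without 5 μM replicate 1 or 2, 2 without 0 μM replicate 1 or 2 or 5 μM replicate 3, 7 without 10 μM replicate 2 and 0 with a straight line in CPM. The 4 NF-κB genes above were 2 without 5 μM replicate 3, and the STAT5 list had 2 above and 0 below without 5 μM replicate 2. Among interferon genes the departures went both ways, with Slfn1 at 0.22 and Gbp5 at 0.15 above, and Ifitm3 at -0.33 and Ifitm2 at -0.16 below the midpoint.

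Genes of the integrated stress response had 3 members above and 4 below of 31. Below were Cth, Atf3, Phgdh and Mthfd2, and above Atf5, Ddit3 and Ddit4, with departures of 0.21, 0.15 and 0.11. The 3 above became 0 without 0 μM replicate 2, 5 μM replicate 1 or 5 μM replicate 2, with a straight line in CPM, and without both libraries that held lung or liver transcripts. Over all genes tested, the 277 above were 179, 140, 108, 176 and 95 in these settings, in that order. The 4 below were 2 without 5 μM replicate 2 and 6 without 10 μM replicate 2, where the 190 below of all genes were 74 and 451.

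Several lists whose genes mostly fell with dose had called departures below the midpoint alone. Of 41 mitotic genes 0 were above and 6 below, among them the kinases Plk1 and Aurka with departures of -0.15 and -0.18, and the spindle factor Tpx2 and the activator Cdc20 with -0.12 and -0.11. The cholesterol list had 0 above and 3 below of 26, among them Hmgcs1 and Msmo1 with departures of -0.14 and -0.22, and 25 of its 26 genes had a departure under 0, called or not. These 3 became 0 without 5 μM replicate 1 or 3 and 5 without 10 μM replicate 2. The proteasome list had 0 above and 3 below of 41, which became 0 without 5 μM replicate 3, 1 without 5 μM replicate 2 and 9 without 10 μM replicate 2. Over all genes tested, the 190 below were 96, 74 and 48 without 5 μM replicates 1, 2 and 3 and 451 without 10 μM replicate 2.

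The mitochondrial lists described here held 1 or 2 called departures each, which is a different share in lists of different length. Of 75 nuclear-encoded subunits of the respiratory chain and ATP synthase, 2 were called below the midpoint, Atp5o and Cox6a1, which is 2.67% and under the 3.83% of all genes. Of the 75, 71 had a departure under 0, with a median of -0.06 beside 0.00088 for all genes, and the 57 that differed at 10 μM had a median share of 82.6% at 5 μM. The 2 calls became 0 under the replicate block, with library totals and without any of 0 μM replicates 2 and 3, 5 μM replicates 1, 2 and 3 and 10 μM replicate 1, and 23 without 10 μM replicate 2. Over all genes tested, the 190 below were 48 to 167 in the settings that gave 0, and 451 without 10 μM replicate 2. The median was -0.03 without both libraries with lung or liver transcripts. The 13 mitochondrially encoded genes had 2 called below, which is 15.4% and above the share of all genes, and a median departure of -0.01. These 2 were 1 to 4 over 18 alternatives that kept the log2 line. The nuclear-encoded subunits were called lower in 53 of 75 at 5 μM against 0 μM and in 0 of 75 at 10 against 5 μM. Over all 12185 genes tested, 2052 and 498 were called lower in these steps. Genes made from 1 shared set of libraries vary together, so the 71 genes are not 71 independent observations. The tricarboxylic acid cycle list had 1 called gene of 21, Mdh2, which is 4.76%, and a median share of 84.5%. The 1 call became 0 to 6 when 1 library was left out. Within it, Ogdh had steps of -0.15 and 0.04 and Fh1 of -0.24 and -0.03 (log2), and neither departure was called.

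Among 80 cytosolic ribosomal proteins 1 was called below the midpoint, the trough Rpl7a, a smaller share than the 3.83% of all genes. The 44 genes that differed at 10 μM had a median share of 31.9% at 5 μM, against 66.8% for all genes. In this list 4 genes were called higher at 5 against 0 μM and 14 at 10 against 5 μM, beside 1984 and 599 of all 12185 genes tested. Rpl18 measured means of 1406, 1369 and 1540.4 CPM in order of dose, with a departure of -0.10 that was not called (edgeR adjusted p = 0.0534). The median departure of the list, -0.03, was -0.008 without 10 μM replicate 1 and 0.004 without both libraries with lung or liver transcripts. Without 10 μM replicate 2, 15 genes of the list were called below, beside 451 of all genes tested. Many ribosomal protein genes have processed copies that share their reads. Several other lists were short, and a few called genes made up a share above the 3.83% of all genes. The cytokine list had 1 above and 3 below of 22, which is 18.2%, and the chemokine list 1 above and 2 below of 17, which is 17.6%. Helper lineage genes and the cAMP and salt-inducible kinase list each had 1 above and 2 below of 22, which is 13.6%. Checkpoint receptors and the MYC network had 2 above and 0 below each, of 15 and 11 genes, which is 13.3% and 18.2%. Of 8 Gimap genes 3 were above, which is 37.5%, and these were 1 to 3 over 18 alternatives that kept the log2 line. Of the 41 lists, 5 held 0 called departures, those of LXR targets, amino acid transporters, MHC class I presentation, the aryl hydrocarbon receptor and the unfolded protein response.

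**Figure D5:**
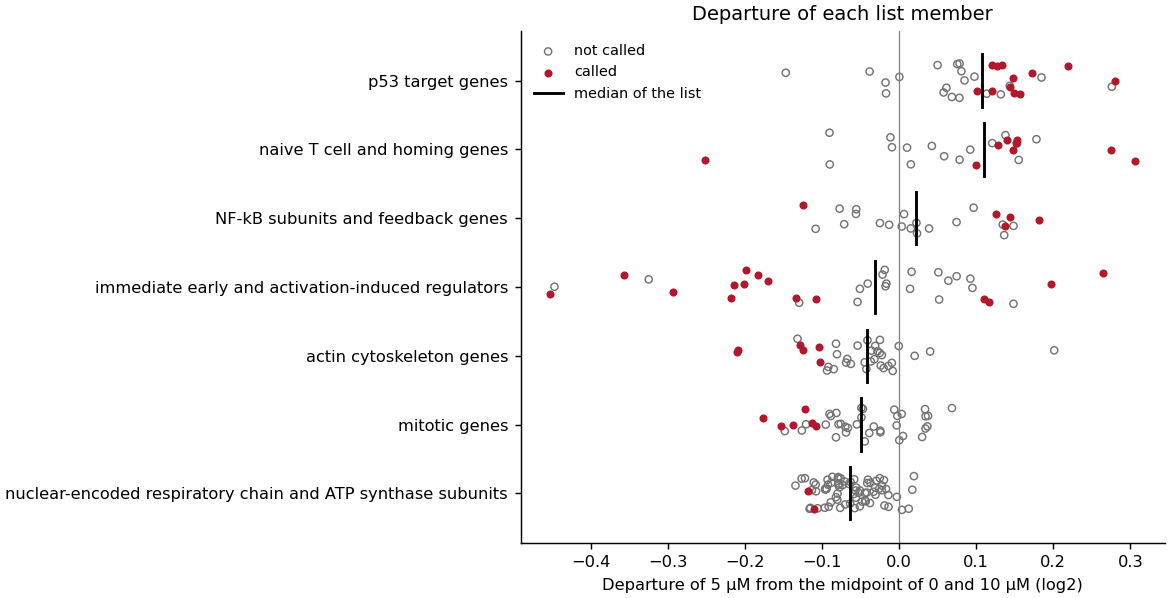
Departure of each tested member (horizontal axis, log2) for 7 lists, with called genes as filled red points, others as open circles and the median as a bar. Respiratory chain genes form a narrow cloud just below 0 with 2 called members, whereas immediate early regulators spread from about Nr4a2 at -0.45 to Cd69 at 0.26.

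How many genes were called depended on single libraries. Without 5 μM replicate 3 the counts were 70 above and 48 below the midpoint, and without 10 μM replicate 2, the library farthest from its group, they were 622 and 451, with 465 of the 467 genes kept. Scaling by library totals gave 390 above and 140 below, 73.6% above against 59.3%, and a straight line drawn in CPM instead of log2 CPM gave 176 and 226, with 43.8% above. The 12 p53 genes above the midpoint became 4 to 16, and the 11 immediate early genes below it 7 to 12, over 18 alternatives that kept the log2 line, and 6 and 11 with a line in CPM. Those ranges were 0 to 10 for the 6 mitotic genes and 3 to 11 for the 6 actin genes. In all 4 lists the lowest count came without 5 μM replicate 3 and the highest without 10 μM replicate 2, which library totals equalled for p53 at 16 and the absence of either other 5 μM library for actin at 3. The number that turned around under all 19 alternatives was 7, namely Atf3, Bhlhe40, Dusp4, Ecsit, Junb, Lcp2 and Nr4a1.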

How the data were processed

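RNA sequencing gave 1 table of gene counts for 9 libraries of activated CD4+ T cells, 3 each at 0, 5 and 10 μM acacetin, grouped by the labels. The values were deposited as estimated counts per gene, and 24.1% of the values in the table were not whole numbers, so they were rounded. The methods name Hisat2 and Stringtie, and the submitters' processing notes name GRCm39. For the counting tool, the annotation and the use of strand, the entry is not given in the sources used here. Of 25757 entries, 964 shared 70 symbols. These stayed separate, and the entry with the highest total carried the symbol. The table had 0 columns that belonged to no sample.

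Counts were scaled with TMM factors, filtered with filterByExpr to 12185 genes and fitted in edgeR 4.0.16 (R 4.3.3) with 1 mean per concentration and quasi-likelihood tests on all 9 libraries. The departure is the coefficient of 5 μM minus the mean of those of 0 and 10 μM. The steps and the 10 against 0 μM change come from the same fit, and p-values were adjusted by Benjamini-Hochberg over all genes tested. A call is an adjusted p under 0.05. The coefficient of variation between replicates was 3.65% in common. The libraries of 19664981 to 24410715 counts left 11323 genes with at least 10 counts in every library. Low genes have wider errors, and all depth-based precision covers counting error only. The scripts were tested on simulated data.

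Named genes needed a mean level of 3 or more in log2 CPM and came from these rules: the 10 smallest adjusted p on each side, the 8 largest changes of each direction in the complete class and in the class that moved between 5 and 10 μM, the 8 turning genes of each kind, at any level, with the smallest p, and 4 genes per list. The members and lists were chosen with earlier results of these data known, and the lists were written from general knowledge. Genes named outside the rules, after their values were seen, were the troughs Casp6 and Phtf1os, the peaks Bmi1 and Tmem184c, and Atf5, Cdkn1a, Ddit3, Dusp1, Egr2, Fos, Fosl2, Id3, Ier2, Irf4, Irf8, Jun, Mdm2, Nr4a3 and Rel, with the genes at the limits of the share. Promoters were taken from RefSeq on GRCm38.p6 and matched by symbol. Alternatives were other size factors, filters and tests (DESeq2 1.42.0, limma 3.58.1), thinned counts, a straight line in CPM, a replicate block and libraries left out. Results for some genes are not reported here.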

Additional observations from a re-analysis of the deposited data

How the results depend on the processing

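The analysis gave 277 genes above and 190 below the midpoint, 240 complete at 5 μM, 9 that moved between 5 and 10 μM and 25 that turned around. Without the filter on low counts these were 514, 339, 359, 30 and 91. A straight line in CPM gave 176 genes above and 226 below, 43.8% above in place of 59.3%, and library totals 390 and 140, 73.6% above. DESeq2 gave 241 and 180. Leaving out both libraries with lung or liver transcripts gave 95 and 89, with 90 complete and 4 between, and 167 of its 184 genes were among the 467. A limit of 15 percentage points around 100% for the share, chosen after seeing the data, left 148 complete.

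Leaving out 1 library at a time gave 70 to 622 genes above, 48 to 451 below, 55 to 444 complete, 3 to 38 between and 17 to 94 turning. The lowest counts came without 5 μM replicate 3, except that 17 turning genes came without 10 μM replicate 3 and 3 genes between also without 5 μM replicate 2. The highest came without 10 μM replicate 2. Genes above also fell to 179 and 171 without 0 μM replicates 2 and 3, and to 140 and 108 without 5 μM replicates 1 and 2. Genes below fell to 96 and 74 without these last libraries. The cause was not tested.

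Deviations from the group means correlated at -0.0303 to 0.0871 in 9 pairs of same-numbered libraries of different concentrations. In the 18 pairs with other numbers they correlated at -0.089 to 0.0416. The same-numbered pairs reached higher, but the 2 ranges overlapped and all values were small. A weak pairing is therefore not excluded, and the main fit did not take the numbers to pair the samples. With a replicate block the counts were 244 above, 159 below, 197 complete, 10 between and 24 turning. Over 197 named genes and all alternatives, 3200 of 3724 values stayed on their side of the threshold, 428 lost the call and 96 gained one. The sign changed in 3 values of 2 genes, of which 0 were called. Groups of 3 are too small to single out an outlying library.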
